A study of Mus musculus with 4 samples.

Results

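Oviduct secretory and Müllerian tract genes were followed here, as 10 genes of 30675 with a named probe set in this series. The members were a fixed list of symbols: the secretory genes Ovgp1, Upk1a and A2ml1, the transcription factor genes Pax8, Pax2, Sox17 and Wt1, and the sex steroid receptor genes Esr1 and Pgr with the oestrogen target Greb1. Each was read by 1 probe set. Total RNA of whole trachea and whole oviduct was hybridised to 1-colour Affymetrix arrays, and the series asks, per its title, how the multiciliated cell programme depends on GEMC1. The groups were WT trachea and Gemc1-null trachea from male mice of 39 days, and WT oviduct and Gemc1-null oviduct from female mice of 65 days. All mice had a mixed C57BL/6 x 129 background and were untreated, and each group had 1 array. The sources used here do not state whether animals were pooled, how the null allele was made or the stage of the oestrous cycle. With 1 array per group, a difference within a tissue carries no replicate error and no test.

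The oviduct epithelium is made of multiciliated cells and secretory cells. The secretory cells carry the Müllerian transcription factors PAX8, PAX2 and SOX17 and pour out oviductin, the glycoprotein encoded by Ovgp1. Oestradiol acts through the receptor encoded by Esr1 and induces Pgr, the progesterone receptor gene, and both receptors are also made by stromal and muscle cells of the tract. Ciliated cells of the oviduct arise from secretory or common progenitors, so the state of the secretory genes where ciliated genes are low is a natural question of this design.

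The start regions of 8 of the 10 genes were held in the RefSeq promoter table (assembly GRCm38.p6), and those of Sox17 and Wt1 are not used here. The 5 windows that hold one of the letter matches marked here are printed, and those of Pax8, Pax2 and Esr1, which hold none of them, are not. Each window, printed or not, is the 250 bases before the most 5′ transcript start listed for the gene, 5′ to 3′ on the gene's strand. Pax2 had 3 listed starts and Esr1 and Greb1 had 2 each, and their other starts were not searched. The shares over all windows given below were not limited to 1 start per gene. Capitals mark GGTCA or its reverse complement TGACC, which is one arm of an oestrogen response element, and TATAAA or its reverse complement TTTATA, the TATA box letters. The regions are chr3:105973552-105973801 on the plus strand for Ovgp1, chr7:30612735-30612984 on the minus strand for Upk1a, chr6:128581607-128581856 on the minus strand for A2ml1, chr12:16800887-16801136 on the minus strand for Greb1 and chr9:8899583-8899832 on the plus strand for Pgr.
Ovgp1: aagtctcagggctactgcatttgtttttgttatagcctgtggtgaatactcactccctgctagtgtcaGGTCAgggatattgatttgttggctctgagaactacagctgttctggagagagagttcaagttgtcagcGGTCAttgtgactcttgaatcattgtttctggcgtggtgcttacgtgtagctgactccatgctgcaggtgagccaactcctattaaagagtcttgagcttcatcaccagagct
Upk1a: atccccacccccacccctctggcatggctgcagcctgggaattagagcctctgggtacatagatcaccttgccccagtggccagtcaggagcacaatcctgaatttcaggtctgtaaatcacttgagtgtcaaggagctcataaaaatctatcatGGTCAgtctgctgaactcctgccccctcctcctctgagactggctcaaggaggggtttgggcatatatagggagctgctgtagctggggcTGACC
A2ml1: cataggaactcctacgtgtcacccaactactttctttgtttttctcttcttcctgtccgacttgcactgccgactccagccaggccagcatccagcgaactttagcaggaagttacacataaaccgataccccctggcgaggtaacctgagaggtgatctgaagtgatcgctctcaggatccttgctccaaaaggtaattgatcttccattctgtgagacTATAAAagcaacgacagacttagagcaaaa
Greb1: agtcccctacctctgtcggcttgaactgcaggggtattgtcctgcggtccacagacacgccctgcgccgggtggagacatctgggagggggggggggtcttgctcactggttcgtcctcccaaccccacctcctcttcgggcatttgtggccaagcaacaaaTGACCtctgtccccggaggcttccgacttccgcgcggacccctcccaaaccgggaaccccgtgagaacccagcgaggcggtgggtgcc
Pgr: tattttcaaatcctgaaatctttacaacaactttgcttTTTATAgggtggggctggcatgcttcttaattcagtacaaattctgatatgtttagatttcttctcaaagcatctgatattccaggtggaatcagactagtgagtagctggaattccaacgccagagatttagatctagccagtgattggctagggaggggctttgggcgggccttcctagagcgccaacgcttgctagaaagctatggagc

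GGTCA or TGACC was found in the windows of Ovgp1 (2 matches), Upk1a (2 matches) and Greb1 (1 match), that is in 3 of 8 windows, next to 35.2% of 32851 promoter windows of the same length. That share is near the background. The whole palindrome, GGTCA and TGACC parted by any 3 bases, was in 0 of the 8 windows and in 0.0639% of all windows. TATAAA lay at bases -30 to -25 from the start in A2ml1, and TTTATA at -212 to -207 in Pgr. TATAAA or TTTATA was in 12.4% of all windows. These are matches of letters on either strand and show no binding. The Greb1 window had 16 CpG dinucleotides and the Upk1a window had 0, next to a median of 6 over all windows.

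Levels are log2 RMA signals throughout. A difference is the log2 level on a tissue's array labelled Gemc1-null less that on its WT array. Over all probe sets the array medians lay between 5.91 and 6.00. The 5222 negative-control probe sets had medians of 5.74 to 5.98 and 95th percentiles of 8.70 to 8.87. Pearson's r over probe sets was 0.979 between the oviduct arrays and 0.945 between the trachea arrays. The targeted gene, now named Gmnc, was read at 5.90 on the WT trachea array, 4.63 on the trachea array labelled Gemc1-null, 6.11 on the WT oviduct array and 8.86 on the oviduct array labelled Gemc1-null. Its level in oviduct therefore goes against the label. Which stretch of Gmnc was deleted is not stated, so the probe set may check nothing, and each direction given here rests on the labels.

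All 10 genes read higher in oviduct than in trachea on the arrays of both genotypes. In WT the measured ratios ran from 3.86-fold for A2ml1 to 80.9-fold for Ovgp1. On each oviduct array 10 of 10 members lay above the 95th percentile of the negative controls. In trachea 1 of 10 did in WT, A2ml1, and 0 of 10 on the other array. The members were listed as oviduct and Müllerian genes, and the share of all genes above that percentile was not counted. These counts are therefore descriptions of the list. Without A2ml1 the trachea levels ran from 5.66 to 6.79 on the WT array and from 6.36 to 6.82 on the other. These 9 genes stood between percentiles 42.6 and 72.9 of the negative controls, so background limits every trachea value of these 9 genes.

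**Figure D1:**
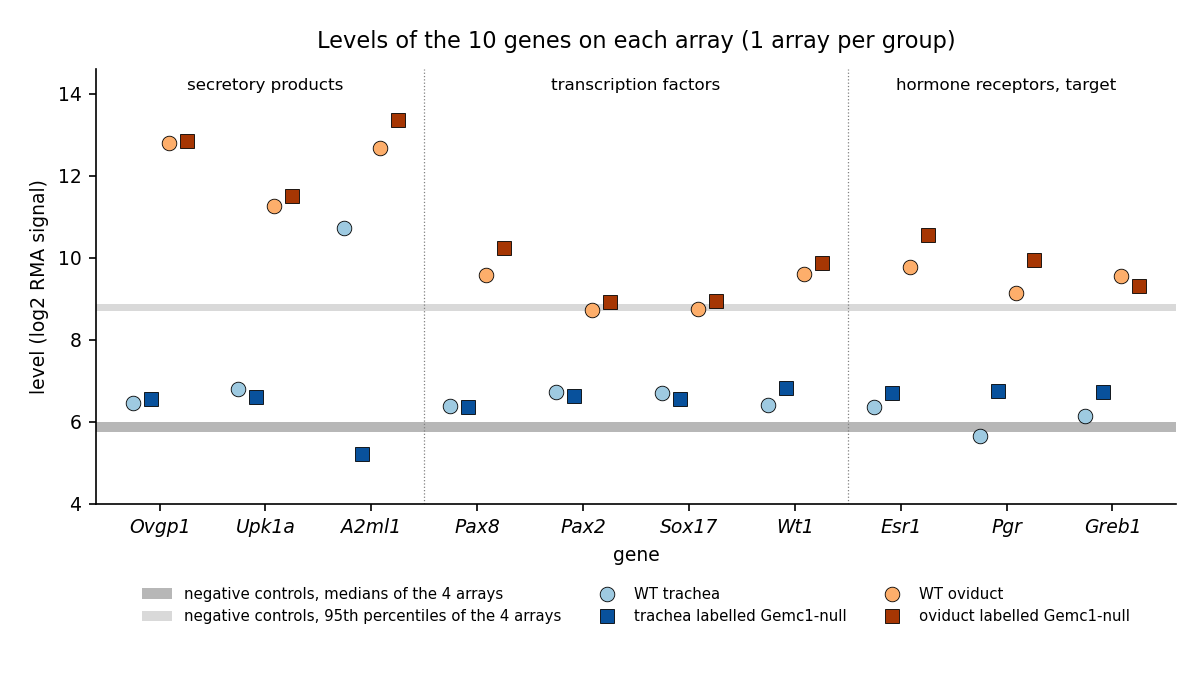
Level of each of the 10 genes (log2 RMA signal, vertical axis) on the 4 arrays, 1 point per array, with grey bands for the medians and the 95th percentiles of the negative controls on the 4 arrays. On both oviduct arrays all 10 genes lie above the 95th percentile of that array, Pax2 and Sox17 in WT by little, while on the trachea arrays A2ml1 in WT, at 10.72, is the one such point.

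Among the secretory products, Ovgp1, which belongs to the chitinase-like proteins and coats the egg and embryo in the oviduct, read 12.79 on the WT oviduct array and 12.84 on the one labelled Gemc1-null. It read 6.45 and 6.56 on the trachea arrays in the same order. The oviduct arrays differed from each other by 0.05. Their measured ratio to trachea was 80.9-fold in WT and 77.5-fold on the arrays labelled Gemc1-null, values limited by background, since Ovgp1 in trachea stood at percentiles 60.6 and 68.2 of the negative controls. Upk1a, a tetraspanin of the uroplakin plaques of urothelium, read 11.26 and 11.51 in oviduct and 6.79 and 6.60 in trachea. A2ml1, a protease inhibitor of the alpha-2-macroglobulin family, read 12.67 and 13.36 in oviduct. In trachea it read 10.72 in WT and 5.21 on the other array. A2ml1 was thus the single member with a clear level in WT trachea.

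The transcription factors had lower readings than the secretory products on the same oviduct arrays, but levels of different probe sets are not comparable. Pax8, a paired-box factor that marks Müllerian secretory epithelium and is also known in thyroid and kidney, read 9.57 on the WT oviduct array and 10.24 on the other, and 6.39 and 6.36 in trachea. Pax2, its close relative in the urogenital tract, read 8.72 and 8.92 in oviduct and 6.72 and 6.63 in trachea. Sox17, a factor of endoderm, endothelium and Müllerian epithelium, read 8.74 and 8.94 in oviduct and 6.70 and 6.56 in trachea. For Pax8, Pax2 and Sox17 both trachea arrays were near background, with the WT array slightly above the other. Wt1, the Wilms tumour zinc finger factor of mesothelium, gonad and Müllerian tract, read 9.61 and 9.86 in oviduct and 6.40 and 6.82 in trachea.

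Esr1, the oestrogen receptor alpha gene, read 9.78 on the WT oviduct array and 10.56 on the one labelled Gemc1-null, and 6.36 and 6.70 in trachea. Pgr read 9.14 and 9.93 in oviduct and 5.66 and 6.74 in trachea. The WT trachea reading of Pgr was under the negative-control median there, 5.98. Greb1, an oestrogen-induced cofactor of the receptor, read 9.56 and 9.32 in oviduct and 6.13 and 6.73 in trachea. Both receptors thus had their highest reading on the oviduct array labelled Gemc1-null, whereas Greb1 had its highest on the WT oviduct array.

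The members are oviduct and Müllerian genes, listed with earlier results of these data known, so that a higher level in oviduct is a description of the list and no evidence about it. Of the 10 members, 10 were at least 2-fold higher in oviduct than in trachea in WT, where 4.56% of 20971 genes were, and 10 on the arrays labelled Gemc1-null, where 5.97% were. Both held together for 2.34% of genes. A limma fit over the 4 arrays with genotype as a block (1 residual degree of freedom) gave oviduct minus trachea differences from 2.15 (Pax2, SE 0.173) to 6.31 (Ovgp1, SE 0.149). The only residual of this fit is the mismatch between the tissue differences of both genotypes. Its SEs and p-values, moderated over genes, therefore measure no spread between replicates. Ovgp1 ranked 1 by p among the 20971 genes tested (limma adjusted p = 0.289). Among the members 9 had an unadjusted limma p under 0.05 with oviduct higher, next to 7.43% of all genes (3.83% were lower at that p), and A2ml1 (5.05, SE 1.87, limma adjusted p = 0.478) was the exception. After Benjamini-Hochberg adjustment limma called 0 genes and 0 members, the members' adjusted p-values running from 0.289 to 0.478, with 1559 genes higher and 804 lower at an unadjusted p under 0.05. Tissue, sex and age cannot be told apart in this comparison.

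The genes with the profile nearest to that of Ovgp1 over the 4 arrays were sought by Euclidean distance of the levels after each gene's own mean was subtracted, among 20970 other genes. The nearest was Xist, the X-inactivation transcript of female cells, at a distance of 0.232. It read 5.47 and 5.48 in the male tracheas and 11.49 and 11.67 in the female oviducts. Next came Rmst, a long noncoding RNA, at 0.980, Calb1, which encodes the calcium buffer calbindin, at 1.31, Plekhs1 at 1.45 and Gcnt3, a glycosyltransferase of mucin-type sugar chains, at 1.5. Upk1a was sixth by this measure, at 1.63. Of the other members, Esr1 ranked 19, Pax8 22, Pgr 28, Wt1 31 and Greb1 42, and Sox17, Pax2 and A2ml1 were farthest at ranks 146, 157 and 164. The measure rests on 4 arrays and on the contrast of tissue, sex and age.

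In oviduct, where the comparison asks how the secretory and receptor genes stood beside low ciliated genes, no member was lower by 2-fold or more and most were slightly higher on the array labelled Gemc1-null. At a 2-fold threshold 0 of 10 were higher, next to 0.807% of 19691 genes that passed the level filter, and 0 of 10 were lower, next to 2.75%. The filter asked for a level at or above the array's median on at least 1 array of the tissue, and all 10 members passed it in both tissues. At 1.5-fold 4 of 10 were higher, next to 2.82% of all genes and 3.20% of those with a level past the 75th percentile of the array. None was lower by 1.5-fold, next to 5.23%. Above 0 by any amount were 9 of 10 members, next to 60.2% of all genes and 59.3% of those past the 75th percentile. The members' median difference was 0.25 and that of all genes 0.05.

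The 4 members past 1.5-fold were both receptors, Pax8 and A2ml1. Pgr differed by 0.79 (1.73-fold), a size reached or passed upwards by 1.42% of genes. Esr1 differed by 0.78 (1.72-fold), reached by 1.46%. A2ml1 differed by 0.70 (1.62-fold) and Pax8 by 0.68 (1.60-fold), reached by 1.93% and 2.05%. Differences of this size are outside the central 95% of all genes on this pair of arrays, which ran from -1.07 to 0.62. The remaining members were inside it, with Wt1 at 0.25, Upk1a at 0.25, Pax2 at 0.21, Sox17 at 0.20, Ovgp1 at 0.05 and Greb1 at -0.24. Greb1 was the one member on the lower side.

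**Figure D2:**
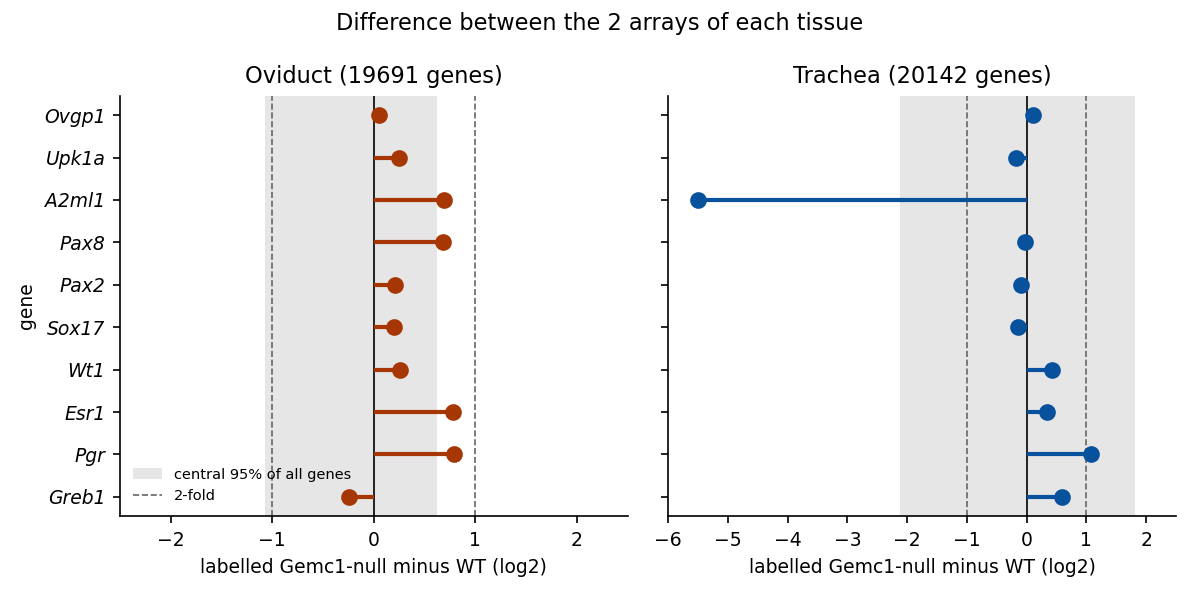
Difference between the array labelled Gemc1-null and the WT array (log2, horizontal axis) for each of the 10 genes in oviduct and in trachea, with 1 array per group. Grey marks the central 95% of all genes and dashed lines 2-fold. In oviduct Pgr, Esr1, A2ml1 and Pax8 lie past the upper grey edge of 0.62, and in trachea A2ml1 stands alone at -5.51.

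Markers of other cells differed between the same oviduct arrays. All 14 of 14 multiciliated cell markers were at least 2-fold lower (median -4.09), and their linear signals summed to 10062 in WT and 785 on the other array, where 8 of the 14 lay below the negative-control median. Ovary somatic markers were at least 2-fold lower in 7 of 8 (median -2.28), with summed signals of 12552 and 858. All 5 oocyte markers that passed the filter were lower, 4 of them by at least 2-fold, and the sums over the list were 688 and 243. Every oocyte marker lay under the 95th percentile of the negative controls on both arrays, so the sizes of the oocyte differences are limited by background. Epithelial markers, which ciliated and secretory cells share, had 0 of 7 past 2-fold (median -0.01), with sums of 7807 and 9062, and Epcam and Krt18 stood at 0.60 and 0.55. Smooth muscle (0 of 6, median 0.04) and stroma (0 of 5, median 0.02) moved by less, with the largest of these at 0.30 for Dcn. Thyroid markers, listed because Pax8 is also a thyroid gene, had 1 of 5 past 2-fold, Tshr at 1.03 (9.14 in WT and 10.17 on the other array), while the thyroglobulin gene Tg read 5.89 and 6.07, near background. Mesothelial markers, among which Wt1 is counted, had 0 of 6 past 2-fold, from -0.44 for Msln to 0.42 for Lrrn4. The part of the ciliated and ovarian markers in the members' differences was not tested. In whole tissue, fewer cells of a type and less RNA per cell cannot be told apart.

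Other genes of the secretory cell and of the Müllerian tract also stayed within 2-fold in oviduct, though several were past 1.5-fold. Of 8 other secretory genes that passed the filter 0 were past 2-fold and 3 were at least 1.5-fold higher (median 0.35), next to 2.82% of all genes. These were Muc1, a membrane mucin, at 0.98 (8.39 in WT and 9.36 on the other array), Wfdc2, a secreted protease inhibitor, at 0.67 and the keratin gene Krt7 at 0.61. The WT levels of all 3 and both Krt7 levels lay under the 95th percentiles of the negative controls (8.71 in WT and 8.74 on the other array). Background therefore limits the sizes of these differences. Ltf, lactoferrin, a classical oestrogen-induced secretory product, read 11.76 and 11.96. Of 15 genes of Müllerian duct development 0 were past 2-fold, 2 were at least 1.5-fold higher and 1 lower (median 0.25). The largest were Msx2, a homeobox gene, at 0.82, and Amhr2, the receptor of anti-Müllerian hormone, at -0.81 (7.77 in WT and 6.95 on the other array). Foxa2, a forkhead factor of glandular epithelium, stood at 0.78. The Msx2, Amhr2 and Foxa2 levels on both oviduct arrays lay under the same 95th percentiles, so background limits these sizes too. Amhr2 is also a gene of granulosa cells, whose markers were lower on the same array. Whether the Amhr2 difference moves with those markers was not tested.

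The oestrogen receptor genes stood on opposite sides in oviduct. Esr2, the second oestrogen receptor gene and the main one of ovarian granulosa cells, read 8.70 on the WT oviduct array and 6.04 on the one labelled Gemc1-null, a difference of -2.66, whereas Esr1 was higher there by 0.78. Neither Esr2 level was above the 95th percentile of the negative controls (8.71 and 8.74), so the size of its difference is limited by background. It was the 1 of 6 other steroid receptor genes past 2-fold in oviduct (median 0.14). The glucocorticoid and mineralocorticoid receptor genes Nr3c1 and Nr3c2 stood at 0.39 and 0.40. Whether the Esr2 difference moves with the ovarian markers, which were lower on the same array, was not tested.

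Among receptor cofactors 1 of 9 was at least 2-fold higher and 1 lower (median 0.06). Nrip1, an oestrogen-induced corepressor, read 8.07 and 9.20, and Fkbp5, a chaperone induced by progesterone and glucocorticoids, read 8.09 and 6.21. Both Fkbp5 levels and the WT level of Nrip1 lay under the same 95th percentiles, and no fold is given for them. The oestrogen target list, in which Pgr and Greb1 are counted, had 1 of 11 genes at least 2-fold higher, Nrip1, and 4 of 11 at least 1.5-fold higher (median 0.22), with Muc1, Pgr and Xbp1, a transcription factor of secretory cells at 0.67, as the others. The progesterone target list had 3 of 10 at least 2-fold lower (median -0.25): Fst, the activin antagonist follistatin, which granulosa cells also make, Fkbp5, and the kinase gene Sgk1. Sgk1 read 8.60 in WT and 7.55 on the other array. Fst read 8.32 in WT and 5.76 on the other array, just below that array's negative-control median of 5.79. Like those of Fkbp5, both levels of Fst and Sgk1 lay under the same 95th percentiles, so background limits the sizes of all 3 differences. Of the 10 genes 4 were above 0 and 6 below. Those above 0 were Gli1 at 0.46, Hand2 at 0.34, Cyp26a1 at 0.15 and Klf9 at 0.05, and Ihh, an epithelial progesterone target, stood at -0.40. Both levels of Gli1, Hand2, Cyp26a1 and Ihh lay under those percentiles too, so background limits these sizes. With 1 array per group these counts are descriptions, next to 2.75% of all genes 2-fold lower and 0.807% higher.

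**Figure D3:**
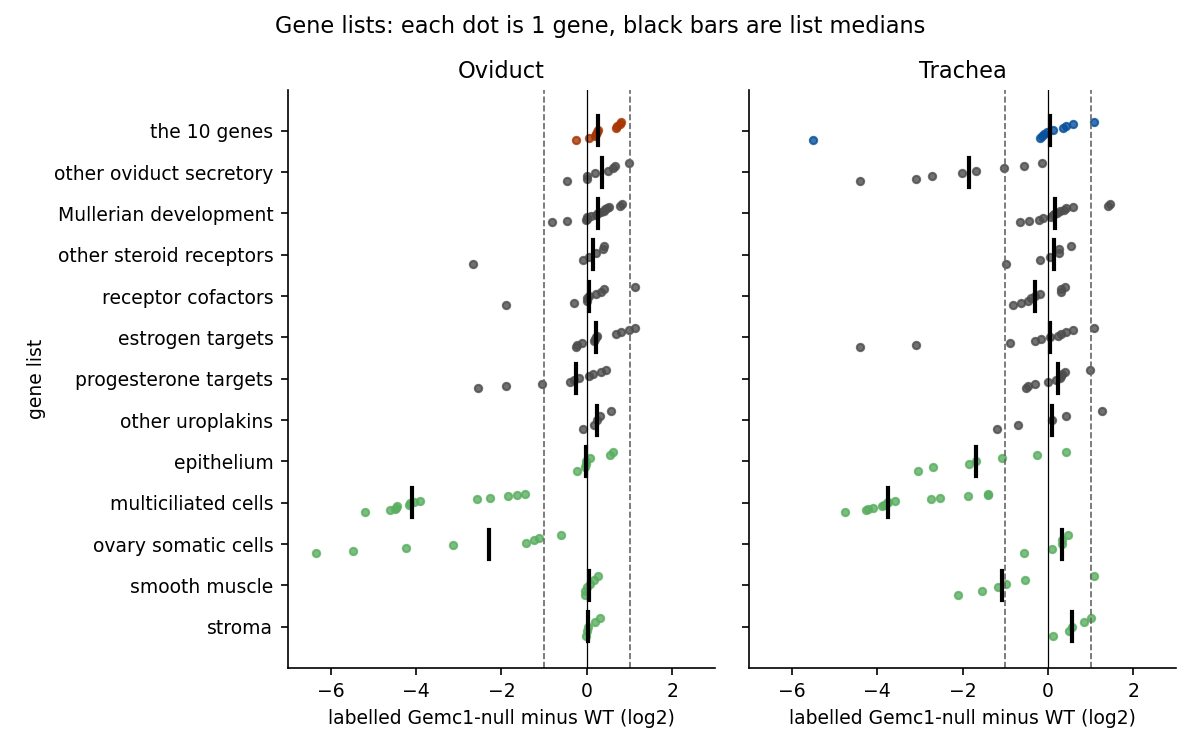
Difference between the array labelled Gemc1-null and the WT array (log2, horizontal axis) for every gene of each list shown that passed the level filter, in oviduct and trachea, with black bars at list medians, dashed lines at 2-fold and cell type markers in green. In oviduct the multiciliated (median -4.09) and ovary somatic (-2.28) lists lie apart from the 10 genes (0.25), and in trachea A2ml1 lies apart from the other 9.

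In trachea the members gave 1 clear difference. A2ml1 was lower on the array labelled Gemc1-null by 5.51, or at least 31.4-fold when the dimmer level is replaced by that array's negative-control median of 5.74. As large a difference downwards was found in 0.0298% of 20142 genes. A2ml1 was the 1 of 10 members at least 2-fold lower, next to 7.74% of all genes, and Pgr the 1 of 10 at least 2-fold higher, next to 6.34%. At 1.5-fold 2 of 10 were higher, Pgr and Greb1, next to 11.8% of all genes and 14% of those past the 75th percentile, and 1 of 10 was lower, next to 13.3%. Above 0 were 5 of 10, next to 52.7% and 48.9% by the same filters. The Pgr difference of 1.08 starts from a WT level below the negative-control median. Pgr on the other array, at 6.74, stood at percentile 71.4 of the negative controls. With both levels within background, the difference sets no lower bound on a fold. Greb1 stood at 0.60, Wt1 at 0.42, Esr1 at 0.35 and Ovgp1 at 0.11, all within the range of the negative controls. Upk1a, Sox17, Pax2 and Pax8 stood at -0.18, -0.15, -0.09 and -0.02, and all 4 turned above 0 when the negative-control medians of the arrays were made equal, a shift that moved the median of all genes in trachea to 0.27.

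The A2ml1 difference went in opposite directions in the tissues, with 5.51 lower in trachea and 0.70 higher in oviduct. Markers of several cell types differed between the same trachea arrays. Airway secretory markers were at least 2-fold lower in 8 of 8 (median -5.31, summed signals 45208 in WT and 3959 on the other array), epithelial markers in 5 of 7, leukocyte markers in 5 of 6 and brown fat markers in 5 of 5. Squamous epithelium markers were at least 2-fold higher in 6 of 6 (median 6.48, sums 325 and 28247) and skeletal muscle markers in 6 of 6 (median 6.63). Multiciliated markers were lower in 14 of 14 (median -3.75). Their part in the A2ml1 difference was not tested. Thyroid markers had 0 of 4 past 2-fold, and their sums were 627 and 641.

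Other oviduct secretory genes were mostly lower in trachea on the array labelled Gemc1-null. Of 8 other oviduct secretory genes that passed the filter in trachea 6 were at least 2-fold lower, next to 7.74% of all genes, with a median over the list of -1.84. These include Ltf, from 11.52 to 7.12, and Muc1, from 9.72 to 6.62. Both were above 0 in oviduct, with Ltf at 0.19 and Muc1 at 0.98, while Gpx3, an extracellular glutathione peroxidase, was below 0 in both tissues (-0.56 in trachea and -0.48 in oviduct). In oviduct 6 of 8 genes of the list were above 0. Whether these differences differ between the tissues could not be tested with 1 array per group. At least 2-fold higher in trachea were 2 of 14 Müllerian development genes, next to 6.34% of all genes. These were Amhr2 at 1.44 and the signalling gene Wnt4 at 1.41, and both were below 0 in oviduct (-0.81 and -0.48). Every Amhr2 level in both tissues lay within the range of the negative controls. So did the Wnt4 levels, except for 9.02 on the trachea array labelled Gemc1-null. Background therefore limits the sizes of the Amhr2 and Wnt4 differences in both tissues. In trachea 0 of 6 other steroid receptor genes, 0 of 9 cofactors and 0 of 10 progesterone targets were past 2-fold. Of 11 oestrogen targets 2 were at least 2-fold lower, Ltf and Muc1. A measured difference past 2-fold upwards was found for 1, Pgr, with both levels within the range of the negative controls.

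Across both tissues, a limma fit with tissue as a block (2 arrays per genotype, 1 residual degree of freedom) gave 0 of 10 members and 0 of 20971 genes past a Benjamini-Hochberg adjusted p of 0.05. The only residual is the mismatch between the genotype differences of both tissues, so the SEs and p-values measure no spread between replicates. At an unadjusted p under 0.05 limma gave 168 genes higher (0.801%) and 567 lower (2.70%), and 1 member, Pgr. Pgr differed by 0.94 (SE 0.171, limma adjusted p = 0.828) and was higher in both tissues, though both of its trachea levels were within background. Esr1 differed by 0.57 (SE 0.198, limma adjusted p = 0.828) and was also higher in both, again with both trachea levels within background. A2ml1 differed by -2.41 (SE 1.87, limma adjusted p = 0.828) and was lower in 1 tissue and higher in the other. The other 7 members lay between 0.03 and 0.34 (Upk1a, at 0.03, turned to -0.0075 when the arrays were quantile normalised anew), with limma adjusted p-values from 0.828 to 0.971. A p that misses the threshold in this design does not show that the genes were alike in both genotypes.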

How the data were processed

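Total RNA of 4 tissue samples was read on 1 array each. The deposited table holds log2 values that, per the submitters' processing notes, come from RMA, for which no version or genome build is stated. The log2 had been taken again before deposit: raising 2 to each deposited value returned numbers of 6 significant digits in 100% of cells (relative tolerance 1e-09), and these numbers are the levels used.

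Names came from GEO's platform annotation, updated through RefSeq gene identifiers. Of 65956 transcript clusters 31223 had 1 gene, 1527 several and 33206 were not listed, and 438 of 30675 genes had more than 1 probe set, of which the one with the highest mean was kept. A list gene with no probe set named this way is not analysed here. The level filter, fold counts and bounds are described where first used. limma 3.58.1 in R 4.3.3 fitted tissue and genotype over 20971 genes that passed in either tissue, with empirical Bayes and Benjamini-Hochberg adjustment, and was tested on simulated data. Precision is limited by the number of arrays.

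The members and lists were chosen with earlier results of these data known. Named genes were the 10 members, the 2 largest differences per list and tissue, and the 5 genes nearest to Ovgp1. Further genes (Krt7, Foxa2, Xbp1, Sgk1, Ihh, Gli1, Hand2, Cyp26a1, Klf9, Gpx3, Nr3c1, Tg, Sox7 and single marker genes) and those given to set the tissues side by side were named after their values were seen. Marker lists covered multiciliated, epithelial, airway secretory, mesothelial, ovarian somatic, oocyte, smooth muscle, stromal, leukocyte, thyroid, squamous, skeletal muscle and brown fat genes. Alternatives were other fold thresholds, filters, probe set rules, scalings, an intensity trend and no block.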

Additional observations from a re-analysis of the deposited data

Results flagged for a closer look

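The difference between the array labelled Gemc1-null and the WT array pointed in opposite directions in trachea and oviduct for 6 of the 10 genes. The share of all genes with opposite directions was not counted, so the 6 are a description. Above 0 were 52.7% of all genes in trachea and 60.2% in oviduct. Upk1a, Pax8, Pax2 and Sox17 turned above 0 in trachea when the negative-control medians of the arrays were made equal. The difference between the tissues was not tested, since each group had 1 array. Oviduct minus trachea, the gap between the 2 log2 differences was 6.21 for A2ml1, 0.70 for Pax8, 0.43 for Upk1a, 0.35 for Sox17, 0.30 for Pax2 and -0.84 for Greb1. For A2ml1 the WT trachea level of 10.72 was above background and the gap was the widest of the 6. For the other 5 genes both trachea levels lay within the range of the negative controls.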

How the results depend on the processing

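Of the alternatives run on counts, 60 left the count within 1.5 times of its main value and 8 did not. Some of the 60 could not do otherwise. A count of 0 members at 2-fold stays 0 at 3-fold, and averaging probe sets cannot change fold counts of members with 1 probe set each. In oviduct the number of members at least 2-fold higher, 0, became 4 at a 1.5-fold threshold. In trachea the number higher, 1, became 2 at 1.5-fold, 0 at 3-fold and 0 with a level filter at percentile 75, a filter chosen after seeing the data that only 1 member passed. The tissue fit in limma without the genotype block called 2 genes, 1 of them a member (Ovgp1, limma adjusted p = 0.0365, against 0.264 to 0.305 under the other alternatives). Among 66 pathway list genes outside the members in oviduct, 1 was at least 2-fold higher and 7 at 1.5-fold, next to 0.807% and 2.82% of all genes. On the lower side were 5 and 7, next to 2.75% and 5.23%. Among 68 such genes in trachea, 11 were at least 2-fold lower and 18 at 1.5-fold, next to 7.74% and 13.3% of all genes. On the higher side were 6 and 9, next to 6.34% and 11.8%. The members' differences were recomputed 60 times, 20 under each probe set or scaling alternative. The 20 with the mean of all probe sets could not move, since each member had 1 probe set. Those under the scaling alternatives moved by -0.09 to 0.24, and 4 changed sign, all in trachea with equal negative-control medians: Upk1a (0.06), Pax8 (0.22), Pax2 (0.15) and Sox17 (0.10). In oviduct 4 members stayed at least 1.5-fold higher in number and 9 above 0 under both other scalings. The trachea counts depended on the scaling. There the number at least 1.5-fold higher, 2, became 1 with quantile normalisation anew and 4 with equal negative-control medians. The number above 0 in trachea, 5, stayed 5 with the former and became 9 with the latter. No paired analysis was possible because each group had 1 array and so no replicate numbers to pair. The limma fits used tissue or genotype as the block instead. Leaving out an array leaves the blocked fit no residual, so no such fit was run. Background limits 9 of the 10 genes in trachea.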

Other observations

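Among the chitinase-like relatives of Ovgp1, Chia1, an acidic chitinase, was lower on the array labelled Gemc1-null in both tissues (from 7.04 to 5.02 in trachea and from 7.23 to 5.93 in oviduct). Every Chia1 level lay under the 95th percentiles of the negative controls, and the 5.02 was below that array's negative-control median of 5.74. Of the chitinase-like family 2 of 5 genes past the filter were at least 2-fold lower in trachea and 1 higher, next to 7.74% and 6.34% of all genes. In oviduct 1 of 3 was at least 2-fold lower, next to 2.75%. Chit1, the macrophage chitinase, read 5.42 on the WT trachea array, below its negative-control median, and 7.48 on the other. Among the relatives of A2ml1, Cd109, a membrane-bound member of the family found in basal and squamous epithelium, read 6.20 in WT trachea and 8.88 on the other trachea array, a difference opposite to that of A2ml1. The complement gene C4b stood at -1.07 there.

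Of the other uroplakin genes 0 of 5 were past 2-fold in oviduct (median 0.24, against 0.25 for Upk1a). In trachea Upk3b, also a mesothelial gene, read 7.54 in WT and 8.81 on the other array, and Upk1b read 9.36 and 8.16. Among the paired-box relatives of Pax8 and Pax2, Pax5, a B cell factor, read 8.99 in WT trachea and 6.58 on the other array, where leukocyte markers were lower too. Pax9, a factor of pharyngeal and oral epithelium, read 7.03 and 8.77, where squamous markers were higher. Whether the Pax5 and Pax9 differences move with those markers was not tested. In oviduct 0 of 5 genes of that list were past 2-fold, and Sox7, a relative of Sox17, stood at 0.45.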
